A study of Mus musculus with 6 samples.

Results

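The genes described here belong to 3 families: the RGS proteins, the adenylyl cyclases and the cyclic nucleotide phosphodiesterases. Most of these genes help to set the strength or length of a signal from a G protein-coupled receptor. They were chosen by symbol, as every row of the deposited expression table named Rgs, Adcy or Pde with a number (and, for Pde, a letter from a to d), leaving out Pde5a. That gave 52 of the 24964 genes in the table: 21 RGS genes, 10 adenylyl cyclases and 21 phosphodiesterases. The study sequenced RNA of mouse uterus, taken around implanted embryos on day 13 of gestation, from 3 samples of the genotype control and 3 of the genotype myometrial PGR knockout, named for loss of the progesterone receptor from the smooth muscle layer. The strain, the age of the mice, the alleles, the promoter that drives the deletion, and whether each library came from its own animal could not be read from the labels. The p-values therefore rest on how far these 6 libraries spread, and that spread may be technical.

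RGS proteins speed up the GTPase of G protein alpha subunits and so end the signal of a receptor early. Adenylyl cyclases make cyclic AMP from ATP, most of them when the stimulatory G protein is active, and phosphodiesterases break down cyclic AMP, cyclic GMP or both. In the myometrium, receptors that act through Gq raise calcium and contract the muscle, while cyclic AMP and cyclic GMP favour relaxation, so these families sit at the point where contraction and quiescence are set against each other.

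Pgr, the gene named in the labels, measured 9.72, 8.33 and 12.1 FPKM in controls 1 to 3, against 11.3, 12.4 and 7.73 FPKM in deficient 1 to 3 (log2 difference 0.05, 95% interval -0.42 to 0.51, limma adjusted p = 0.91). By its usual definition FPKM is the number of fragments on a gene divided by the length of its model and the size of the library. Pgr thus gave no sign of the deletion in this tissue, so the second group is named by its label only (deficient-labelled), on which every direction given below depends. Summed FPKM was between 357126 and 377091 per library. The worth of 1 read in FPKM was about equal in all columns. The formula used for these values is not given, so this does not settle the depth of single libraries. The third library of each group correlated least with the other two of its group across the genes tested (mean r of 0.983 for control 3 and 0.974 for deficient 3, against 0.981 to 0.987), across genes that are not independent replicates.

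Of the 52 members, 35 reached a mean of 1 FPKM over the 6 libraries and were tested with limma on log2(FPKM + 1), together with the other genes of the table that did so. Rgs1 and Pde3b fell and Rgs11 rose in the deficient-labelled libraries, at a Benjamini-Hochberg adjusted p under 0.05 over 12500 genes. These 3 are 8.57% of the members tested, where 3.34% of all genes tested passed (1.34% higher and 1.99% lower, 168 and 249 genes). Scaling moved that split, to 218 higher and 211 lower with each library at 1 summed level, 131 and 336 with quantile normalization and 123 and 391 with median-of-ratios scaling. At an unadjusted p under 0.05 stood 8 higher and 6 lower members, 40.0% of those tested, against 21.5% of all genes (14.4% higher and 7.09% lower). The values of the groups did not overlap for 10 higher and 7 lower members, 48.6%, against 29.0% of all genes (20.8% higher and 8.16% lower). The median difference was 0.05 on the log2 scale over the 35 members and 0.06 over all genes tested, with members on both sides of it, from -1.72 to 0.79. None of the 35 passed the filter through 1 group alone, since for each of them the mean of both groups was on the same side of 1 FPKM.

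**Figure D1:**
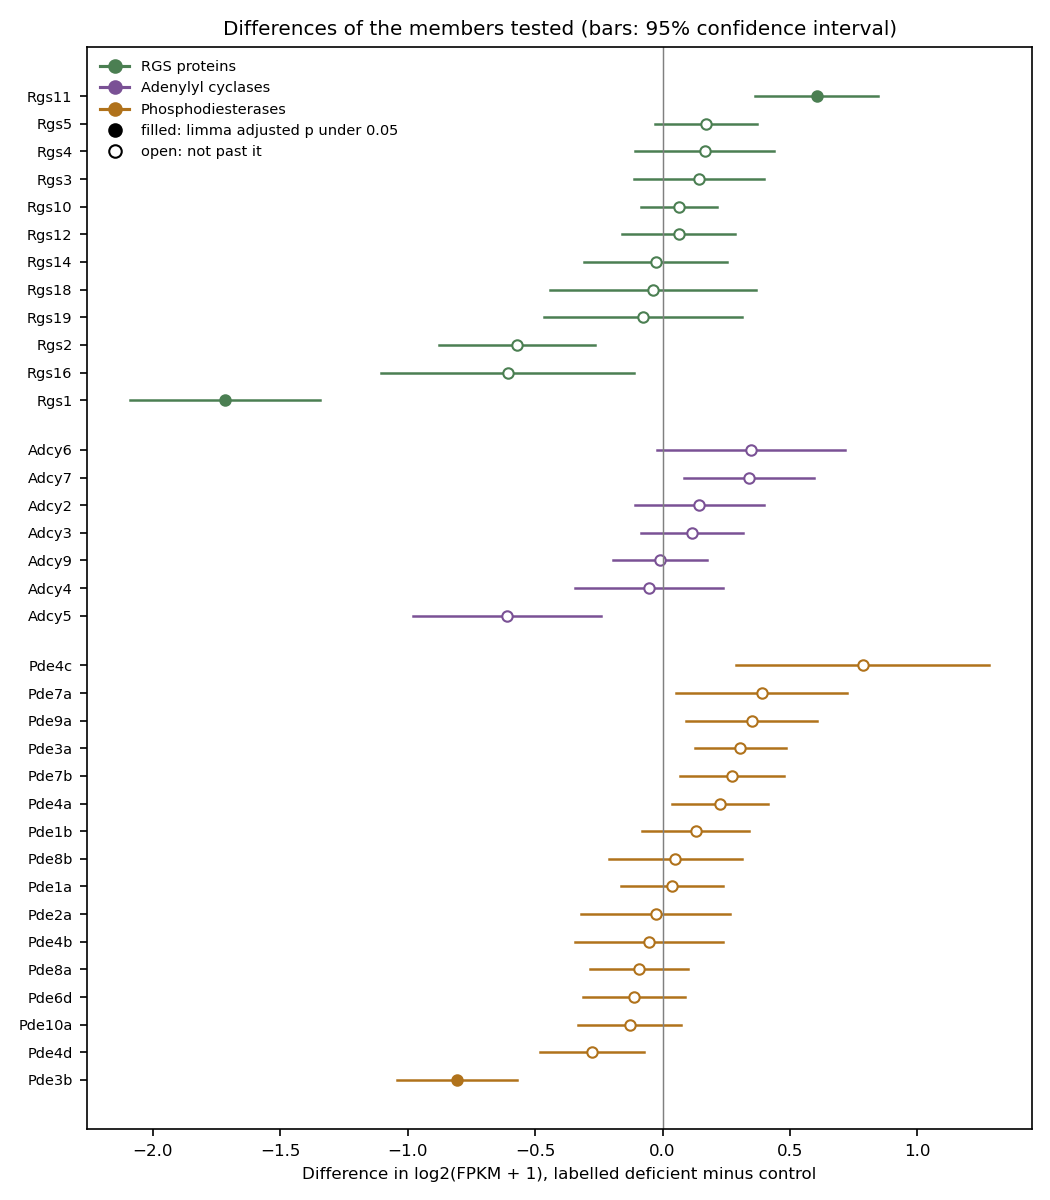
Difference in log2(FPKM + 1), labelled deficient minus control, of the 35 members tested, by family, with 95% confidence intervals from limma. Filled points passed the adjusted threshold: Rgs1 at -1.72, Pde3b at -0.81 and Rgs11 at 0.60.

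Markers of smooth muscle, epithelium and red blood cells were among those that differed between the groups. All 10 smooth muscle markers fell, with sums of 8090 to 9874 FPKM in the control libraries against 3269 to 3853 FPKM in the deficient-labelled ones. Of 7 epithelial markers, 2 rose and 0 fell, with sums of 597.3 to 663.3 and 765.0 to 970.9 FPKM. No marker of either list was under 0.1 FPKM in all libraries. Endothelial markers gave sums of 134.0 to 143.5 and 123.9 to 172.8 FPKM, with 0 of 8 called. Of 7 erythroid markers Alas2 rose (limma adjusted p = 0.029), Slc4a1 was higher without overlap and the 4 globin genes were listed at 0, with sums of 2.97 to 6.18 and 13.2 to 25.6 FPKM. Of 7 fibroblast markers none passed, 4 were lower and 1 higher without overlap, with sums of 5929 to 6437 and 5287 to 5397 FPKM. Of 8 decidual markers none passed, 2 were lower and 3 higher without overlap. Their sums of 117.7 to 419.8 and 64.5 to 97.4 FPKM turned on Prl8a2, without which the other 7 came to 57.3 to 65.6 and 63.8 to 70.9 FPKM. The part of muscle, epithelial, blood, fibroblast or decidual content in the differences of the members was not tested, and fewer cells of a type and less RNA per cell cannot be told apart in such bulk tissue.

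Of the RGS genes, the R4 family, the small members made of little more than the RGS domain, held the highest levels and the largest fall. Rgs1, a regulator best known in lymphocytes, where it dampens chemokine receptors, was at 13.2, 12.4 and 14.2 FPKM across controls 1 to 3, against 2.39, 3.95 and 3.83 FPKM across deficient 1 to 3. Every library labelled deficient lay far below every control. The mean fell 3.91 times, from 13.3 ± 0.9 to 3.39 ± 0.87 FPKM (SD, n = 3 each), and on the log2 scale the difference was -1.72 (SE 0.15; adjusted p = 0.0050 by limma). Markers of mast cells moved with Rgs1: of 7 markers, 6 were lower in every library labelled deficient, and their summed level was 28.8 to 35.5 FPKM in the controls and 3.00 to 5.31 FPKM in the deficient-labelled libraries. Of 9 lymphocyte and natural killer cell markers, 0 were lower without overlap and 1 was higher, with sums of 3.35 to 4.05 and 3.40 to 5.11 FPKM. Of 7 macrophage markers none separated the groups, with sums of 561.0 to 641.9 and 554.6 to 616.5 FPKM. In these 3 lists Ms4a1, a B cell marker, was alone in being under 0.1 FPKM in all libraries. The part of these cells in the fall of Rgs1 was not tested.

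Rgs2, which acts by preference on Gq and limits the contraction of smooth muscle, was the second most abundant member of the 52 per length of gene. Its level was 71.0, 56.0 and 58.6 FPKM across controls 1 to 3, against 38.5, 37.9 and 47.6 FPKM across deficient 1 to 3. The groups did not overlap, but the difference of -0.57 (SE 0.13, 95% interval -0.88 to -0.27) did not pass (limma adjusted p = 0.074). Rgs2 passed in 4 of 17 alternative settings. These were without deficient 3 (limma adjusted p = 0.039), without the third library of each group (0.037), with array weights (0.016) and with median-of-ratios scaling (0.048). In the other settings it did not pass, with limma adjusted p up to 0.22. Of all genes tested, 14.2% passed with array weights and 10.2% without the third library of each group, against 3.34% in the main test. Rgs16, which acts on Gi and Gq and is induced in activated lymphocytes, was at 2.17, 2.93 and 1.68 FPKM across controls 1 to 3, against 0.674, 1.62 and 1.15 FPKM across deficient 1 to 3. Deficient 2 at 1.62 lay just under control 3 at 1.68, so the groups barely parted, and the difference of -0.61 (SE 0.21) had a limma adjusted p of 0.17.

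Rgs5, a marker of pericytes and vascular smooth muscle, was the most abundant member. It was at 74.2, 73.9 and 72.9 FPKM across controls 1 to 3, against 88.4, 74.4 and 87.3 FPKM across deficient 1 to 3. Deficient 2 was almost level with the controls, and the difference of 0.17 (95% interval -0.03 to 0.37, limma adjusted p = 0.30) did not pass. Rgs4, a regulator of Gi and Gq signalling known from heart and brain, was at 5.77, 6.63 and 4.73 FPKM and then at 6.55, 6.83 and 6.05 FPKM, with overlapping groups (0.16, limma adjusted p = 0.45). Rgs3 and the platelet regulator Rgs18 also overlapped between the groups, with differences of 0.14 and -0.04. Of 8 pericyte and mural cell markers, 3 fell, 0 rose and 2 of the others were higher without overlap, with sums of 179.7 to 193.3 FPKM in the controls and 139.8 to 151.2 FPKM in the deficient-labelled libraries. Mcam made up most of that sum, and the 7 others came to 71.4 to 76.0 and 66.8 to 67.5 FPKM. The 2 higher markers were Pdgfrb and Higd1b, and the part of such cells in the level of Rgs5 was not tested.

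**Figure D2:**
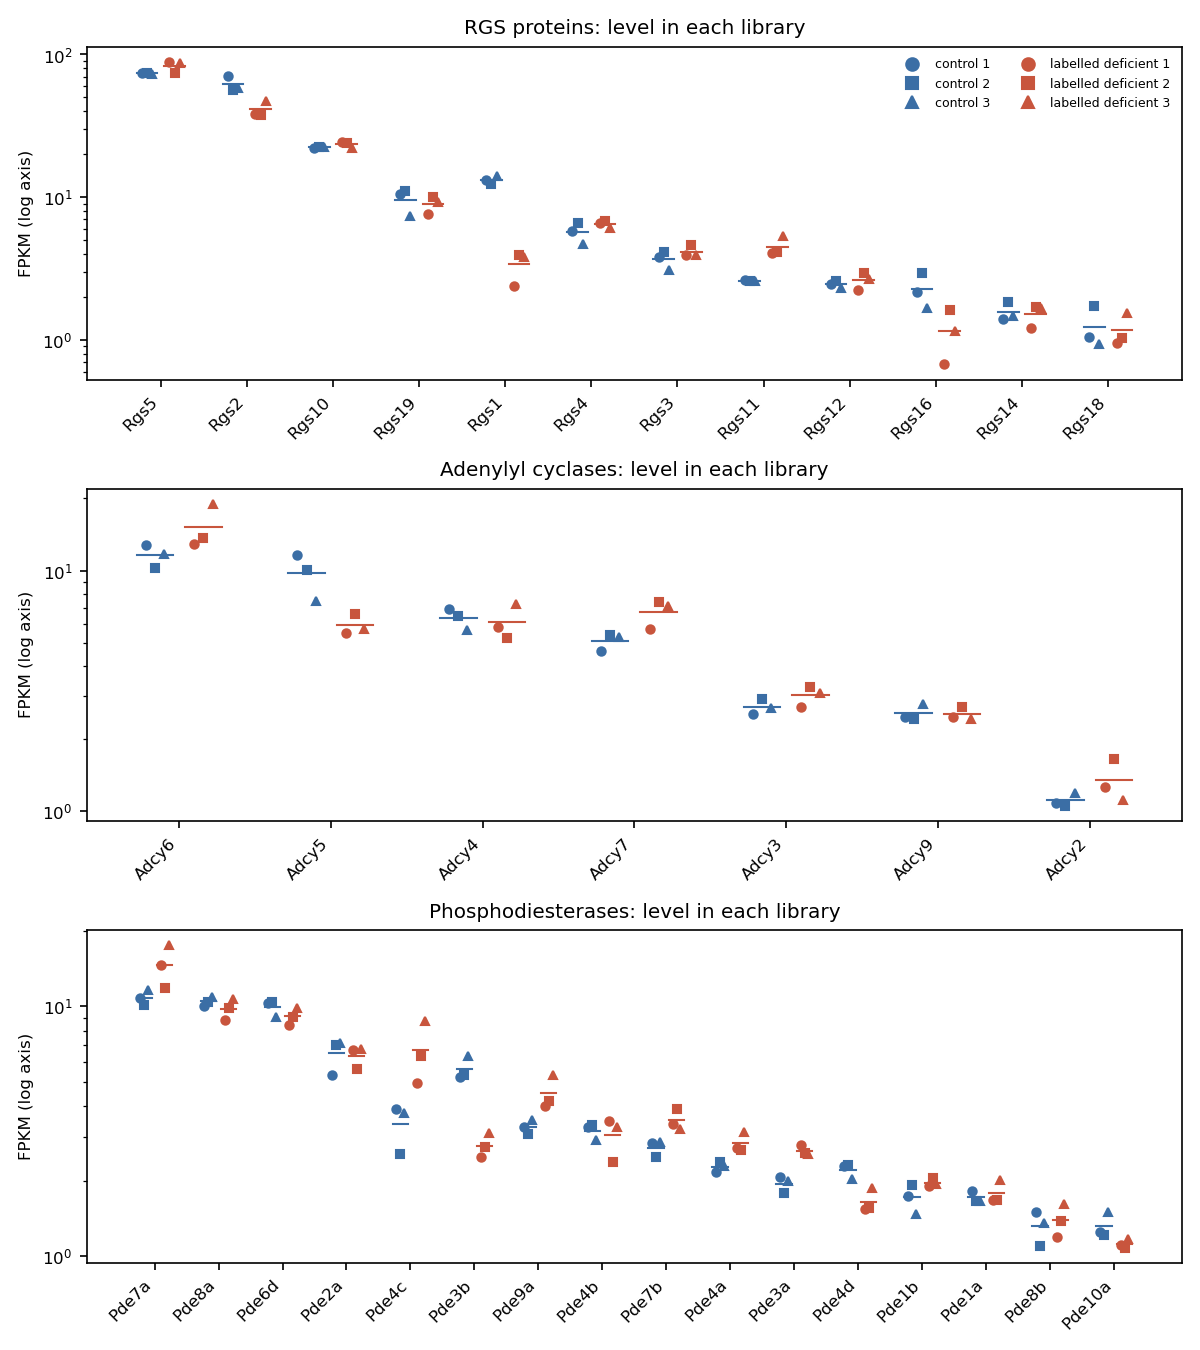
FPKM (log axis) of each tested member in each of the 6 libraries, with a line at each group's mean. The 3 values of Rgs1 labelled deficient lie between 2.39 and 3.95 FPKM, under controls between 12.4 and 14.2 FPKM, while Rgs5 stays between 72.9 and 88.4 FPKM.

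Apart from Rgs3, on chromosome 4, the R4 genes lie in groups on mouse chromosome 1 (GENCODE M21, GRCm38, the assembly also called mm10), and neighbours there did not share 1 level. Rgs2 (143999338 to 144004161), Rgs13 (144138654 to 144177372), Rgs1 (144242296 to 144249242), Rgs21 (144516648 to 144567667) and Rgs18 (144752683 to 144775435) lie within 776.1 kb, all on the minus strand. In that stretch Rgs2 and Rgs1 were lower in all deficient-labelled libraries. Rgs18 was at 0.940 to 1.72 FPKM in the controls and 0.953 to 1.54 FPKM in the other group. Rgs13, known from germinal centre B cells and mast cells, did not pass 0.109 FPKM in any library, and Rgs21 was listed at 0 in all of them. Rgs4 and Rgs5 lie 45.7 kb apart in another part of the chromosome, and so do Rgs8 and Rgs16, 40.0 kb apart, of which Rgs8 stayed at or under 0.022 FPKM.

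Sequence upstream of the start is shown for Rgs2 and Rgs16, since both are R4 genes with lower values in every library labelled deficient, and for Adcy5, which is described with the cyclases. These are members with an unadjusted p under 0.05, a single RefSeq window and the largest differences, picked after their values were seen. Pde4c, which also met these terms, was left out because GENCODE has a transcript that starts before its window. Whether other transcripts cross the windows shown was not tested, and Rgs16 shares 236 exon bases with Gm28513 on the opposite strand. The windows come from RefSeq (GRCm38.p6), which matched 38 of the 52 members with 68 windows of 300 bases (Rgs1, Rgs11, Pde3a, Pde3b and Adcy8 are among the 14 not matched). The bases from 250 to 21 before the start are printed 5′ to 3′ on the strand of the gene, at chr1:144004170-144004399 (minus strand) for Rgs2, chr1:153740103-153740332 (plus strand) for Rgs16 and chr16:35154614-35154843 (plus strand) for Adcy5. Capitals mark TGACG on either strand, the short core of the cyclic AMP response element.
Rgs2: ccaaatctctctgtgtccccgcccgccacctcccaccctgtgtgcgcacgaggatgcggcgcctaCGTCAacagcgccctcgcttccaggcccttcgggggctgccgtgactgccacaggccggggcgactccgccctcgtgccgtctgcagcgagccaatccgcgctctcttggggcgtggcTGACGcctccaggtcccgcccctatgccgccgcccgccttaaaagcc
Rgs16: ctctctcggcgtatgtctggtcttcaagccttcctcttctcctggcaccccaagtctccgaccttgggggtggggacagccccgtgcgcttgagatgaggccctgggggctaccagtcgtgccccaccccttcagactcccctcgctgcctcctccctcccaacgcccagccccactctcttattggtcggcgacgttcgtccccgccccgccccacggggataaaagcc
Adcy5: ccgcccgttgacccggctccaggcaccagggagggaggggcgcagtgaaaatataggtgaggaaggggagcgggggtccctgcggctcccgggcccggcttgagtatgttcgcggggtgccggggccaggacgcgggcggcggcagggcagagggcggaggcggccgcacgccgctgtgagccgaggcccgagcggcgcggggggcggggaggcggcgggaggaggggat
The bases shown of Rgs2 held the core once on each strand, starting 185 and 67 bases before the start, and those of Rgs16 and Adcy5 held none. Over all 32851 windows, from 250 bases before to 50 after a start, 20.8% held TGACG, and so did 13 of the 68 windows of members (19.1%). The full element TGACGTCA, which contains the core on both strands, was in 1.79% of all windows and in 0 of the members'. The palindrome of GNACA, any 3 bases and TGTNC, bound by the progesterone receptor and its relatives, was in 0.475% of all windows, and the CArG box of smooth muscle genes in 1.63%, both on either strand and both in 0 of the members' windows. The TATA box TATAAA was in 13.6% of all windows and in 7 of the members' (10.3%), again on either strand. A match describes letters, and its absence says only that they are not in these windows.

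Outside the R4 family, Rgs11 rose. Rgs11 belongs to the R7 family, whose members pair with the G protein subunit Gbeta5 and are best known from neurons and the retina. It was at 2.64, 2.60 and 2.57 FPKM across controls 1 to 3, against 4.05, 4.15 and 5.33 FPKM across deficient 1 to 3. The controls lay close together and every library labelled deficient lay above them. On the FPKM scale this was 1.73 times, and on the log2 scale 0.60 (SE 0.10, limma adjusted p = 0.033). The call was lost without control 1 (adjusted p = 0.13), control 2 (0.12), control 3 (0.075), deficient 1 (0.074) or deficient 2 (0.079). It was also lost with no filter (0.067) and with the replicate number as a block. Rgs11 shares 138 exon bases with Arhgdig on the opposite strand (chromosome 17, 26202951 to 26211324 for Rgs11), and the labels do not say whether strand was kept. Rgs9, the R7 member of phototransduction and of the striatum, was under the filter, at 1.26, 1.09 and 1.19 FPKM across controls 1 to 3, against 0.745, 0.393 and 0.714 FPKM across deficient 1 to 3. All 3 of the latter were lower, and with no filter the limma adjusted p was 0.11. Rgs7 was at 0.400 to 0.465 FPKM and at 0.295 to 0.909 FPKM, with overlapping groups.

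None of the 4 members tested in the R12 and RZ families had an unadjusted p under 0.05. Rgs10, a regulator of Gi that is abundant in macrophages and microglia, was at 22.0, 22.6 and 22.6 FPKM and at 24.4, 24.0 and 22.0 FPKM, with a 95% interval of its log2 difference from -0.09 to 0.22 (limma adjusted p = 0.59). Rgs19, a regulator of Gi on vesicles, was at 10.5, 11.01 and 7.39 FPKM and at 7.66, 10.1 and 9.27 FPKM, with an interval from -0.46 to 0.31 (limma adjusted p = 0.82). Rgs12 and Rgs14, larger proteins with further binding domains, differed by 0.06 and -0.03 with overlapping groups. Over all 21 RGS genes the summed level was 202.2 ± 9.0 FPKM in the controls and 183.7 ± 9.8 FPKM in the deficient-labelled libraries (SD, n = 3 each).

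None of the 7 adenylyl cyclases tested passed the adjusted threshold with limma. At an unadjusted p under 0.05 stood 2 of them (28.6%), Adcy5 lower and Adcy7 higher, where 21.5% of all genes tested did. Adcy5 and Adcy6 form the calcium-inhibited group, and both are found in heart and smooth muscle. Adcy5 (chromosome 16, 35154877 to 35305738) was at 11.6, 10.0 and 7.50 FPKM across controls 1 to 3, against 5.48, 6.61 and 5.74 FPKM across deficient 1 to 3. All 3 were below the lowest control, control 3, which itself stood well under the other two. The difference of -0.61 (SE 0.15, limma adjusted p = 0.095) did not pass. It did so without control 3 (adjusted p = 0.037), without the third library of each group (0.030) and with array weights (0.014), and leaving out 1 of the other libraries gave up to 0.27.

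Adcy6 was at 12.8, 10.3 and 11.7 FPKM across controls 1 to 3, against 12.9, 13.6 and 18.9 FPKM across deficient 1 to 3. Deficient 1 exceeded control 1 by little and deficient 3 stood highest, and the difference of 0.35 had a 95% interval from -0.02 to 0.71 (limma adjusted p = 0.26). Adcy7, a cyclase stimulated by G beta-gamma and common in blood cells, was at 4.65, 5.37 and 5.27 FPKM and at 5.69, 7.40 and 7.12 FPKM (0.34, limma adjusted p = 0.15). The related Adcy4 and Adcy2 overlapped between the groups, at 6.35 ± 0.64 and 6.11 ± 1.01 FPKM and at 1.11 ± 0.07 and 1.34 ± 0.27 FPKM (SD, n = 3 each). Adcy3, the cyclase of olfactory cilia, differed by 0.12 and the widely expressed Adcy9 by -0.01. Adcy3 shares 1380 exon bases with Cenpo and Adcy6 605 with Gm29331, both on the opposite strand. The summed level of the 10 cyclases was 40.0 ± 2.6 and 41.2 ± 4.6 FPKM (SD, n = 3 each), with overlapping groups.

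Adcy8, a cyclase stimulated by calcium and calmodulin and best known from brain, was at low levels in the controls and close to 0 in the deficient-labelled libraries. Its values were 0.413, 0.523 and 0.609 FPKM across controls 1 to 3, against 0.005, 0.011 and 0.000 FPKM across deficient 1 to 3 (chromosome 15, 64697084 to 64922296). Its mean was under 1 FPKM, so it was not in the main test. With no filter it passed (limma adjusted p = 0.011, where 1.06% of the genes then tested passed as lower), with a difference of -0.59 on the log2(FPKM + 1) scale, which understates changes this low. Adcy10, the soluble cyclase that senses bicarbonate, was at 0.081, 0.097 and 0.076 FPKM and at 0.020, 0.010 and 0.030 FPKM, and did not pass with no filter (limma adjusted p = 0.069). Of 8 neuron and glia markers, 1 fell (Uchl1), 1 was higher without overlap, and the sum was 6.91 to 9.57 FPKM in the controls and 3.59 to 4.47 FPKM in the deficient-labelled libraries, with Elavl4 under 0.1 FPKM in all. Without Uchl1 the other 7 summed to 1.06 to 1.31 and 1.37 to 2.21 FPKM, higher in the deficient-labelled libraries. That sum leaned on Syp, the marker higher without overlap (0.449 to 0.556 and 0.644 to 0.966 FPKM). It also leaned on Snap25, at 0.373 FPKM in deficient 2 and at 0 elsewhere. Of the 8 markers, 5 had a mean under 0.1 FPKM, so these sums say little about neurons or glia. The part of such cells in the level of Adcy8 was not tested.

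**Figure D3:**
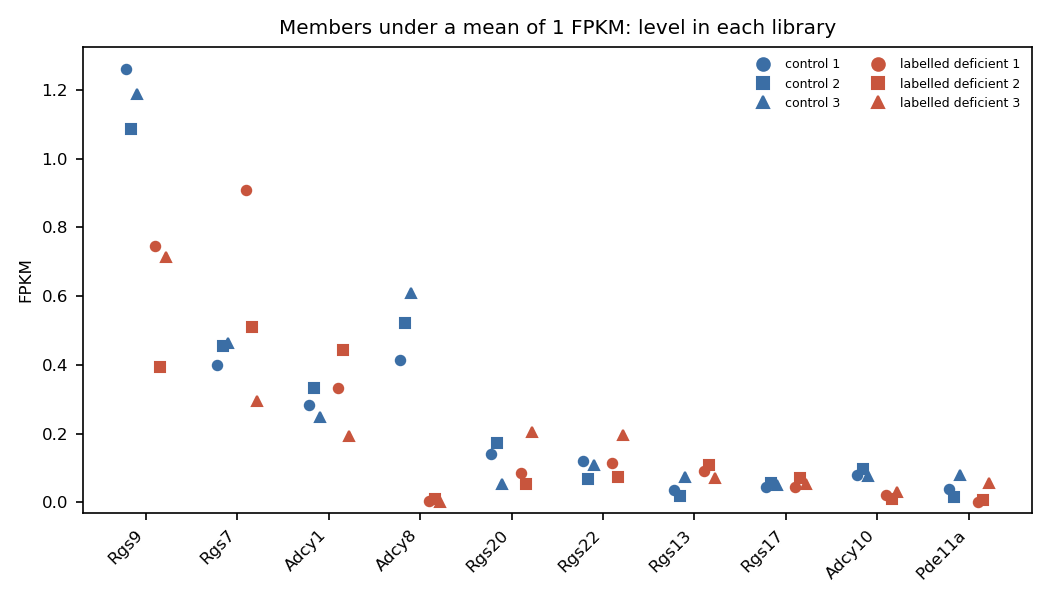
FPKM of 10 members with a mean under 1 FPKM in each library, on a linear axis. Adcy8 lies at 0.413 to 0.609 FPKM across controls 1 to 3, and at most at 0.011 FPKM across deficient 1 to 3, and Rgs9 is lower in that group too.

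In all, 17 members were under the filter. Rgs21 was listed at 0 throughout. Of the 16 with a value, 3 were lower without overlap (Rgs9, Adcy8 and Adcy10) and 0 higher, where 12.8% of all such genes did not overlap. Of the 17, 13 stayed at or under 0.21 FPKM in every library, among them the photoreceptor phosphodiesterases Pde6a, Pde6b and Pde6c, with at most 0.032 FPKM.

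Among the phosphodiesterases Pde3b fell. PDE3 enzymes hydrolyse cyclic AMP and are inhibited by cyclic GMP, so they join the 2 second messengers, and Pde3b is best known as the form that insulin activates in fat and liver. Pde3b (chromosome 7, 114415281 to 114539251) was at 5.22, 5.30 and 6.32 FPKM across controls 1 to 3, against 2.49, 2.74 and 3.11 FPKM across deficient 1 to 3. The groups lay far apart for their spread, with means of 5.61 ± 0.61 and 2.78 ± 0.31 FPKM (SD, n = 3 each). The mean fell 2.02 times, or by 0.81 on the log2 scale (SE 0.10, limma adjusted p = 0.014). The call was lost when control 1, control 2 or deficient 1 was left out (adjusted p = 0.056 each time) and when deficient 2 was (0.051).

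Pde3a, the PDE3 form of heart, platelets and vascular muscle, was at 2.08, 1.78 and 2.00 FPKM across controls 1 to 3, against 2.78, 2.60 and 2.56 FPKM across deficient 1 to 3. It was higher in each of them, but the difference of 0.30 (SE 0.07) had a limma adjusted p of 0.089. Pde3a overlaps the gene model Gm28523 on the opposite strand by 741 exon bases. The summed PDE3 level was 7.56 ± 0.66 FPKM in the controls and 5.42 ± 0.21 FPKM in the others (SD, n = 3 each).

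The PDE4, PDE7 and PDE8 genes encode enzymes specific for cyclic AMP. None of these 8 passed, and 4 were higher and 1 lower at an unadjusted p under 0.05, where 14.4% and 7.09% of all genes tested were. Their summed level was 34.8 to 37.7 FPKM in the controls and 39.9 to 50.1 FPKM in the deficient-labelled libraries, highest in deficient 3. Pde4c had the largest difference, from 3.90, 2.57 and 3.73 FPKM to 4.94, 6.34 and 8.71 FPKM. The groups were apart, but deficient values ranged widely, and the difference of 0.79 (SE 0.21) had a limma adjusted p of 0.11. Pde4d, a main form of heart and smooth muscle, was at 2.29, 2.31 and 2.04 FPKM and then at 1.54, 1.56 and 1.87 FPKM (-0.28, limma adjusted p = 0.14). Pde4a was at 2.28 ± 0.11 and 2.84 ± 0.26 FPKM (SD, n = 3 each, limma adjusted p = 0.18), and Pde4b overlapped between the groups.

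Pde7a, known from T cells and muscle, was the most abundant phosphodiesterase, at 10.8, 10.1 and 11.6 FPKM across controls 1 to 3, against 14.6, 11.8 and 17.6 FPKM across deficient 1 to 3 (0.39, limma adjusted p = 0.18). Its relative Pde7b was at 2.83, 2.49 and 2.86 FPKM and at 3.38, 3.90 and 3.24 FPKM (0.27, limma adjusted p = 0.15). The high-affinity enzyme Pde8a was at 10.5 ± 0.4 and 9.80 ± 0.92 FPKM (SD, n = 3 each), with a 95% interval of its difference from -0.28 to 0.10, and Pde8b differed by 0.05.

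Of the remaining enzymes, Pde9a, which is specific for cyclic GMP, was at 3.29, 3.10 and 3.51 FPKM across controls 1 to 3, against 3.99, 4.19 and 5.34 FPKM across deficient 1 to 3. Each of the latter lay above every control, with a difference of 0.35 (limma adjusted p = 0.14). Pde2a, which cyclic GMP stimulates, was at 6.50 ± 1.02 and 6.34 ± 0.63 FPKM (SD, n = 3 each), with a 95% interval from -0.32 to 0.27. Of its exon bases 3955 are shared with Gm45837 on the same strand, so its level is uncertain. The calcium-dependent Pde1a and Pde1b differed by 0.04 and 0.13, and Pde10a, known from the striatum, by -0.13. Pde6d, whose product is a carrier of prenylated proteins and no phosphodiesterase, was at 9.94 ± 0.76 and 9.12 ± 0.73 FPKM (SD, n = 3 each, limma adjusted p = 0.48).

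Ratios of 2 members within a library do not depend on how libraries are scaled to each other. The 4 pairs here were chosen after their values were seen, so these ratios describe the libraries and were not tested. The ratio of Pde3b to Pde3a was 2.51, 2.97 and 3.16 in the controls and 0.895, 1.05 and 1.21 in the deficient-labelled libraries, where the 2 forms were at about equal levels. The ratio of Adcy5 to Adcy6 was 0.911, 0.975 and 0.641 and then 0.424, 0.486 and 0.303. That of Rgs2 to Rgs5 was 0.957, 0.757 and 0.804 and then 0.436, 0.509 and 0.545. That of Pde4c to Pde4d was 1.70, 1.11 and 1.83 and then 3.20, 4.07 and 4.66.

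**Figure D4:**
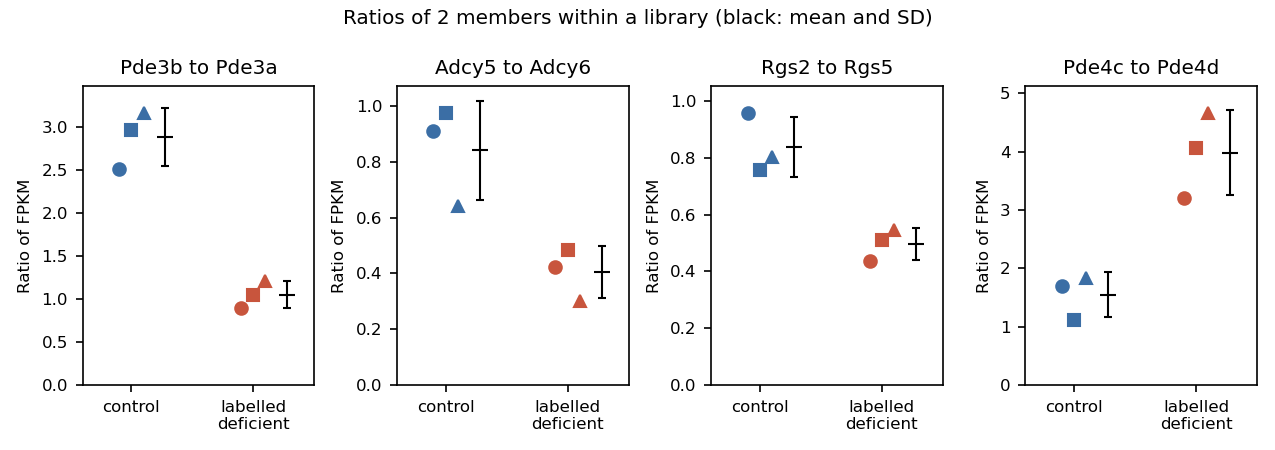
Ratio of the FPKM of 2 members in each library, with the mean and SD of each group in black. Pde3b to Pde3a went from 2.88 ± 0.34 to 1.05 ± 0.16 and Pde4c to Pde4d from 1.55 ± 0.38 to 3.98 ± 0.73 (SD, n = 3 each).

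Shares of a family's summed level give the same data per family. They are tied to each other, so the share of 1 member can rise where others fall. As levels, Rgs5 and Adcy6 did not pass (limma adjusted p = 0.30 and 0.26). Rgs5 took 36.5% of the summed RGS level in the controls and 45.3% in the deficient-labelled libraries on average, Rgs2 took 30.5% and 22.4%, and Rgs1 took 6.57% and 1.85%. Adcy6 took 29.0% and 36.6% of the cyclase level, and Adcy5 24.1% and 14.5%. The phosphodiesterases were spread more evenly: the largest share, that of Pde7a, was 15.8% and 19.7%, and Pde3b took 8.17% and 3.76%. Their sum leaves out Pde5a and includes Pde6d (14.5% and 12.4%), whose product is no phosphodiesterase.

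**Figure D5:**
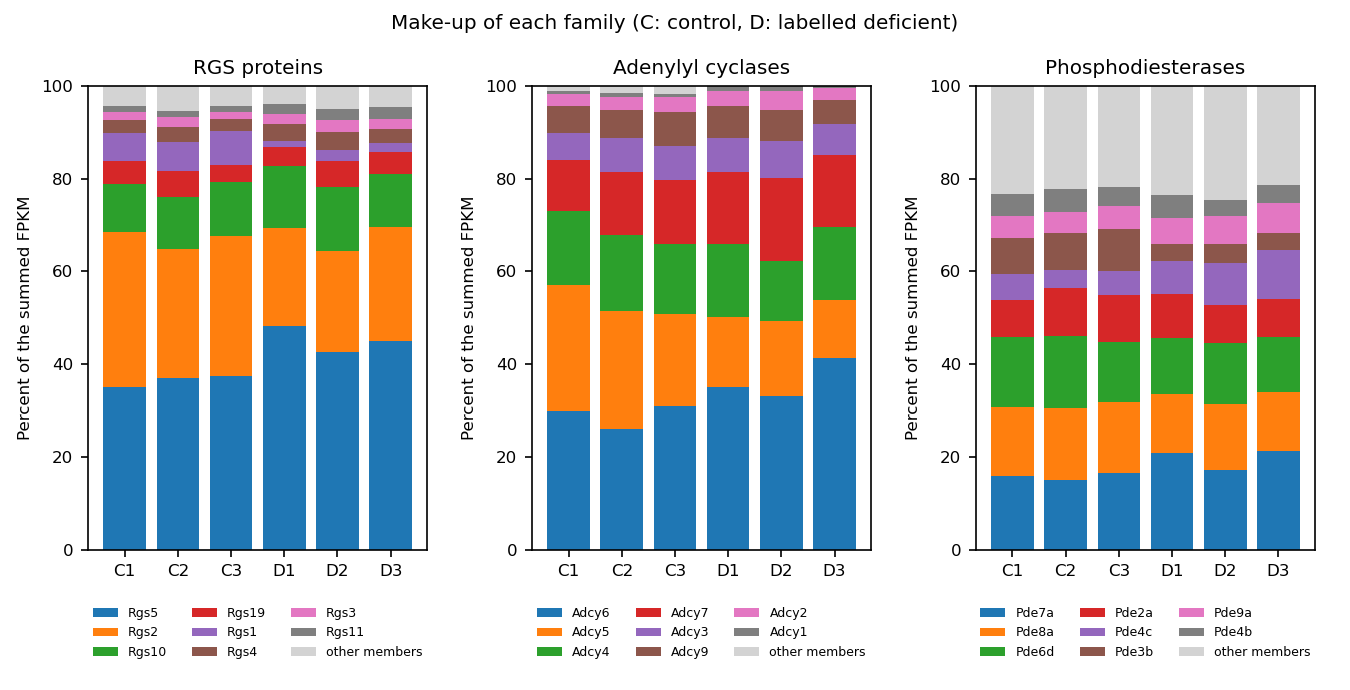
Percent of each family's summed FPKM taken by its 8 most abundant members in controls 1 to 3 (C1 to C3) and in the deficient-labelled libraries 1 to 3 (D1 to D3). Rgs2, Rgs1, Adcy5 and Pde3b take less in each D library, and Rgs5, Adcy6 and Pde4c more. As levels, only Rgs1 and Pde3b of these passed the adjusted threshold.

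Of 75 other genes of the pathway that were tested, from lists of G protein subunits, receptor kinases, RGS partners, protein kinase A, anchoring proteins, other cyclic AMP effectors and CREB factors, 4 fell and 0 rose, 5.33%, against the same 3.34% of all genes. Gnaz, an alpha subunit of the inhibitory family that RGS proteins act on, fell from 3.74, 3.14 and 3.03 FPKM to 1.09, 1.12 and 0.970 FPKM (-1.06, SE 0.09, limma adjusted p = 0.0045). Gnao1, another inhibitory alpha subunit, fell from 2.52, 2.17 and 2.55 FPKM to 1.18, 1.49 and 1.41 FPKM (limma adjusted p = 0.034). That call was lost without any 1 of the 6 libraries (adjusted p up to 0.15) and without the third library of each group (0.057). It was also lost with no filter (0.057) and with the replicate number as a block.

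Bves and Popdc2 encode Popeye proteins, which bind cyclic AMP in the membranes of muscle cells. Bves fell from 12.2, 13.7 and 8.64 FPKM to 4.06, 5.46 and 4.11 FPKM (-1.16, limma adjusted p = 0.027) and Popdc2 from 14.9, 15.8 and 12.2 FPKM to 4.75, 7.82 and 4.44 FPKM (-1.22, limma adjusted p = 0.031). Both calls were lost without control 1, control 2 or deficient 1, and that of Popdc2 also without control 3 (adjusted p up to 0.12 and 0.13), and with no filter (0.051 and 0.059). The means of Bves and Popdc2 fell 2.53 and 2.52 times, where those of the 10 smooth muscle markers fell 1.67 to 4.72 times. The part of muscle content in the falls of Bves, Popdc2 and the other pathway genes was not tested. None of the 10 genes of protein kinase A and its inhibitors passed or had an unadjusted p under 0.05. Prkacb, a catalytic subunit with the smallest p among these 10, was at 14.8 ± 0.6 and 13.3 ± 1.3 FPKM (SD, n = 3 each). In the lists with no call, the genes with the smallest p were Gng2, a gamma subunit (-0.28), the arrestin gene Arrb1 (0.28), Gpsm1, a regulator of Gi (0.19), Pde4dip, which anchors PDE4 (-0.29), and the CREB coactivator Crtc2 (0.24), with limma adjusted p between 0.072 and 0.18.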

How the data were processed

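The submitters' processing notes name STAR 2.7.0f, cutadapt 2.7, the build mm10 and DESeq2 1.24.0, without role or order. For 24964 genes the authors deposited FPKM. Not given in the sources used here: counter, annotation, strand and the formula of FPKM. The 6 columns carry the names of the samples. Depth per library is unknown: among genes at low values, the ratio to control 1 piled up at 1 in 4 libraries and at 1.01 in 1, so 1 read is worth about the same in each column.

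Here limma 3.58.1 in R 4.3.3 (lmFit, eBayes with trend) was run on log2(FPKM + 1), labelled deficient minus control, over 12500 genes whose mean reached 1 FPKM, with Benjamini-Hochberg adjustment and a threshold of 0.05. On simulated data for this comparison, with 12500 genes, it recovered 88.5% of 200 genes changed 2-fold (7 false calls) and 99% of 200 changed 4-fold (16 false calls). The simulated noise was normal, with an SD set by the level of a gene alone. It lacked the spread that differs from gene to gene, so this recovery need not hold for the real libraries. Reads were not recovered, and no count model was fitted.

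The members, lists and tests were chosen with earlier results of these data known. Named are members past the threshold, the 6, 4 and 6 smallest p and the 4, 3 and 4 highest levels in the 3 families, and in each pathway list the genes called or, failing that, the smallest p. Other members named were chosen after their values were seen. Alternatives were other pseudocounts (0.1 and 0.5), filters, scalings, variance models, a replicate block and left-out libraries. Positions are from GENCODE M21. The levels of some marker genes are not reported here.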

Additional observations from a re-analysis of the deposited data

How the results depend on the processing

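With 3 libraries a group and an unknown depth, precision is limited above all for members under 1 FPKM. Of 575 differences recomputed for the 35 members tested, 520 kept their direction and side of the threshold, 11 lost a call, 10 gained one and 34, of 11 members, changed sign, none of them called. Rgs1 kept its call in all 17 alternatives, with differences from -1.97 to -1.54. With no filter 0 members were higher, and Adcy8 passed in place of Rgs11. A minimum mean of 5 FPKM takes Pde3b and Rgs11 out of the test, and of the members left Rgs1 passed, so 1 was called, 0 higher and 1 lower.

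Array weights gave 1770 genes (14.2% of those tested), 1048 higher and 722 lower, and 8 members, 2 higher and 6 lower. Median-of-ratios scaling gave 391 lower genes. Without replicate 3 of both groups 1274 genes passed, 616 higher and 658 lower, and 5 members, 4 of them lower. Leaving out 1 library gave 99 (without control 1) to 519 genes (without deficient 3), 26 to 277 of them higher and 72 to 242 lower, and 1 to 4 members, 0 to 1 higher and 1 to 3 lower. The counts without control 2 (104), deficient 1 (130) and deficient 2 (185) were also far from the 417. The cause of these shifts was not tested, beyond the smaller number of libraries.

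Same-numbered libraries did not deviate together (correlations of -0.14, 0.079 and -0.13 for numbers 1 to 3). The deviations are from each group's own mean, so with 3 libraries a group they are tied to each other. They cannot show whether the samples were paired, and the labels do not say. With the replicate number as a block 143 genes (1.14%) passed, 31 higher and 112 lower, and the members Rgs1 and Pde3b, so 0 higher: the calls of Rgs11 (adjusted p = 0.095) and Gnao1 (0.12) were lost.

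Signs that turned, all of uncalled differences, were those of Pde2a (0.016), Adcy9 (0.028) and Rgs14 (0.00026) with libraries set to 1 sum, Rgs10 (-0.0034) and Pde1a (-0.0076) with median-of-ratios scaling, and Pde1a (-0.0070) with quantile normalization. With array weights they were Pde2a (0.070), Adcy9 (0.019), Pde1a (-0.018), Pde8b (-0.029) and Rgs12 (-0.0018), and without replicate 3 of both groups Adcy9 (0.060), Pde1a (-0.034) and Pde8b (-0.0041). Leaving out 1 library at a time moved Adcy4 from -0.16 to 0.035, Pde2a from -0.14 to 0.048, Rgs19 from -0.24 to 0.024, Pde8b from -0.020 to 0.11, Rgs14 from -0.079 to 0.065, Rgs18 from -0.15 to 0.11, Adcy9 from -0.049 to 0.036, Pde4b from -0.13 to 0.069, Rgs12 from -0.00089 to 0.14 and Pde1a from -0.019 to 0.067.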
